A study of Homo sapiens with 6 samples.

Results

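The translation initiation and elongation factors are the proteins that bring ribosomes to mRNAs, find the start codon, drive the ribosome along the coding sequence and release the finished chain. Protein-coding genes were taken as members when their symbol starts with EIF or EEF followed by a number, together with PABPC1, PABPC4, ETF1, GSPT1, LARP1 and PDCD4. The eIF2α kinases (EIF2AK1 to EIF2AK4) and copies on chromosome Y were left out of the members. This gave 70 genes of the 57736 in the count table, of which 67 had 10 or more counts in 3 or more of the 6 libraries and were tested. The other 3 members, EIF4E1B, EIF2S3B and the read-through gene EEF1E1-BLOC1S5, had 0 counts in all 6 libraries. A count of 0 allows up to 3 counts, or 0.342 to 0.452 CPM (counts scaled to a common library size) depending on the library, for counting error only. The rule itself uses gene names and type and no measured value, but it was chosen with earlier results of these data known.

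The cells were PC3, a human prostate cancer line, and Mic60 (gene IMMT) is an organizer of the cristae of the mitochondrial inner membrane. One group received a control siRNA (siCTRL, n = 3) and the other an siRNA against Mic60 (siMic60, n = 3), according to the column names of the table. Another field of the labels calls the same groups wild type and knockout. No time after transfection, dose or siRNA sequence is given in the labels, and the labels do not say whether the replicates were separate cultures. The supplement of the paper speaks of independent biological replicates for its data in general, without saying how these libraries were made. The p-values cover the spread from library to library, part of which may be technical. Polyadenylated RNA was read from its 3′ end (QuantSeq), and levels are CPM after TMM normalization unless stated. Because levels are shares of a library, less RNA per cell and fewer cells of a given kind cannot be told apart.

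Initiation starts when eIF2, loaded with GTP and the initiator tRNA, joins the small ribosomal subunit with eIF1, eIF1A, eIF3 and eIF5, while eIF4F binds the mRNA cap and unwinds the leader. Cells regulate this at the exchange of GDP on eIF2 by eIF2B, which phosphorylated eIF2α blocks, and at the cap, where the 4E-binding proteins hold eIF4E away from eIF4G. During elongation eEF1A delivers aminoacyl-tRNAs, eEF2 moves the ribosome by a codon and hypusinated eIF5A relieves stalls. Many mRNAs of the translation machinery begin with a C followed by a run of pyrimidines, the terminal oligopyrimidine (TOP) sequence, through which mTORC1 and LARP1 control their translation and stability.

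IMMT was checked first. Control libraries held 742, 729 and 733 counts and silenced libraries 38, 60 and 74, so the mRNA was at 8.12% of its control level (adjusted p = 4.29e-10, edgeR's quasi-likelihood test with Benjamini-Hochberg adjustment, which gave every adjusted p below). Total counts were 6644495 to 8779877 per library. The siCTRL replicate 1 library stood farther from the other siCTRL libraries (chi-square per degree of freedom 10.8 and 13.5) than these did from each other (3.54), and pairs across groups gave 45.2 to 69.0. Where a call of a member was lost or gained without that library, the value without it is given beside the result. Scaled by library totals, 7 markers listed for PC3 summed to 2386 to 2623 CPM in siCTRL and 2070 to 2319 CPM in siMic60. The list mixes epithelial genes with VIM and CD44, and its genes moved in both directions. KRT8, VIM and CD44 were called higher and KRT18, KRT19 and EPCAM lower, while CDH1 did not pass the test. Over all genes tested, 17.7% were called higher and 17.9% lower. Leukocyte markers summed to at most 2.48 CPM in any library, with 5 of 8 at 0 throughout. Of the fibroblast and endothelial list DCN and VWF were at 0 in all libraries, and COL1A2 and LUM averaged under 1 CPM in each group. COL1A1, a collagen gene, was the exception at 2215 to 3087 counts in siCTRL and 299 to 534 in siMic60, and it made up nearly all of the summed level of that list (285 to 369 and 45.8 to 63.5 CPM).

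Mic60 silencing changed the mRNA of 29 of the 67 tested members, and it changed them in both directions. A total of 18 members rose (26.9%) and 11 fell (16.4%), while 38 did not pass the test. Over all 14653 genes tested, 35.5% were called, 17.7% higher and 17.9% lower. Members were expressed at a median of 157 CPM against 20.9 CPM for all genes, and well expressed genes pass the test more often. Of the genes averaging 50 CPM or more, a limit chosen after the values were seen, 45.5% were called, as were 23 of the 48 members above it. The share of members called therefore lay near that of genes of similar level. The groups did not overlap for 37 of 67 members (22 higher and 15 lower), or 55.2%, against 47.9% of all genes.

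The count of members that rose depended on a single library more than the count that fell. Without siMic60 replicate 1, 10 members rose and 11 fell. With library totals in place of TMM, 14 rose and 13 fell. All 29 called members kept their sign in each of 13 alternative settings, and 19 of them passed the test in each.

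**Figure D1:**
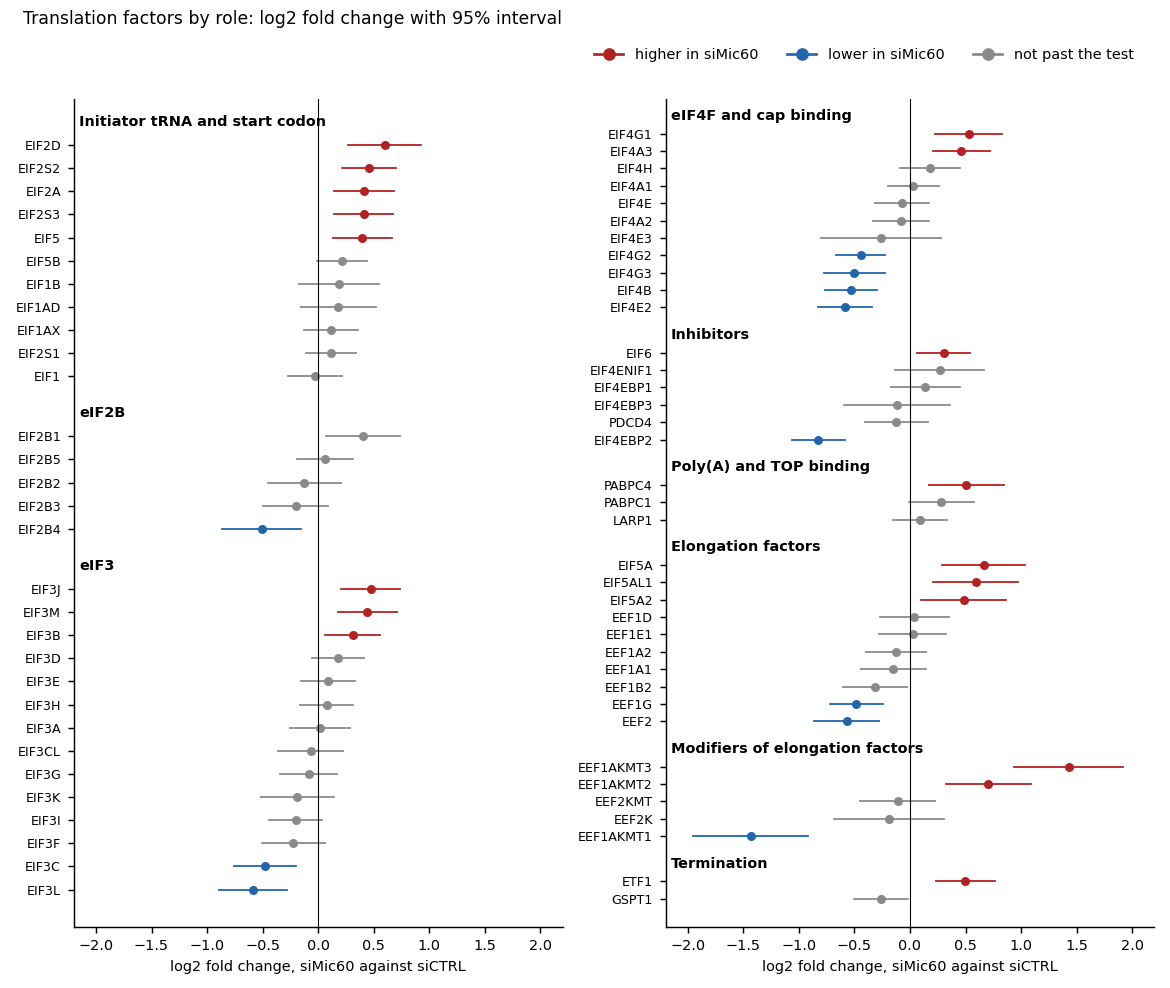
The log2 fold change of each tested member (siMic60 minus siCTRL, points, with 95% intervals as bars) is plotted by role, with called members coloured by direction and members not called in grey. EEF1AKMT3 at 1.43 and EEF1AKMT1 at -1.44 lie at the ends, and most other members lie within 1 log2 unit of 0.

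The changes were small. Of the 29 called members only 2 differed by more than 2-fold, EEF1AKMT3 and EEF1AKMT1, or 6.90%, against 34.1% of all called genes. Of the called members 20 were within 1.5-fold. The median size of the log2 fold change was 0.50 among called members and 0.78 among all called genes. The members together made up 20790 ± 1407 CPM in siCTRL and 20803 ± 781 CPM in siMic60 (SD, n = 3), which is 2.08% of the normalized library in both groups. Scaled by library totals the sums were 21220 ± 1783 and 20395 ± 574 CPM (SD, n = 3), again less apart than the spread of siCTRL.

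**Figure D2:**
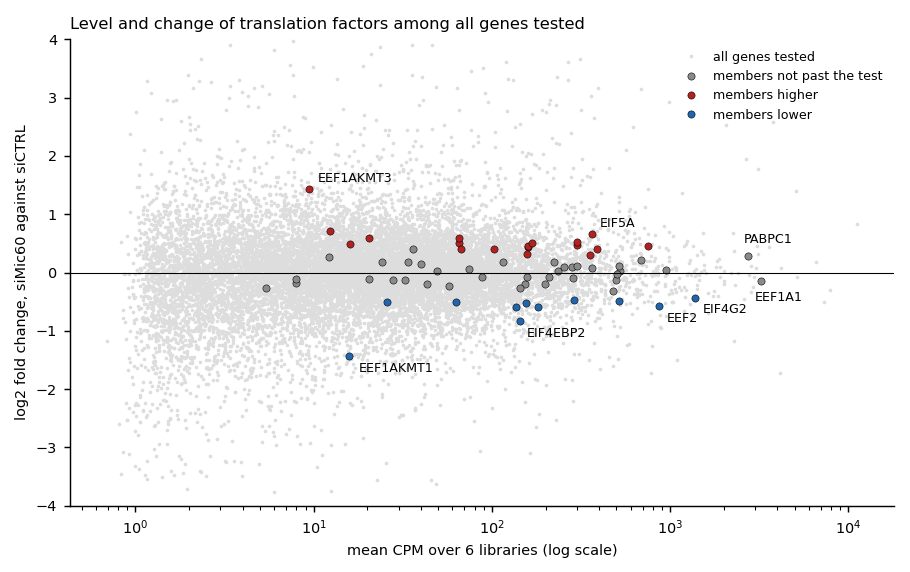
The log2 fold change (siMic60 minus siCTRL) of every tested gene is plotted against its mean level in CPM on a log axis, with members drawn over all genes in grey. Members sit at high levels and close to 0, and 46 genes that are not shown lie beyond a log2 fold change of 4 in either direction.

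Factors of the ternary complex and the start codon gave the group with the most members higher. Of its 11 tested members 5 rose, none fell and 6 did not pass, where 17.7% of all genes rose and 17.9% fell. The median log2 fold change of the group was 0.22. At an unadjusted p under 0.05, and with DESeq2, the counts were again 5 higher and 0 lower. EIF2S2, the β subunit of eIF2, was at 676, 628 and 602 CPM in siCTRL and 875, 973 and 772 CPM in siMic60, and it rose 1.37-fold (95% interval 1.16 to 1.63, adjusted p = 0.00549). Every siMic60 library lay above every siCTRL library. A processed copy of this gene, EIF2S2P4, was counted at 431, 474 and 480 reads in siCTRL and 682, 592 and 713 in siMic60 (adjusted p = 0.00403), and how reads were divided between the copies is not known.

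EIF2S3, the γ subunit that binds GTP and the initiator tRNA, was at 87.1, 89.6 and 89.3 CPM in siCTRL and 114, 134 and 105 CPM in siMic60. Its rise was 1.33-fold (1.11 to 1.59, adjusted p = 0.0177), with no overlap between the groups, but did not pass without siCTRL replicate 2 (0.0543) or siMic60 replicate 2 (0.0696). EIF2S1, the α subunit that the eIF2α kinases phosphorylate, averaged 289 ± 9.21 CPM in siCTRL and 314 ± 12.0 CPM in siMic60 (SD, n = 3). For EIF2S1 the groups also did not overlap, but the log2 difference of 0.12 did not pass the test (adjusted p = 0.419). Whether the 3 subunits differ in their change was not tested.

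EIF2D, which can place tRNA on the ribosome without eIF2 and acts in recycling, had the largest log2 fold change of the group. Its level was 40.0, 53.2 and 62.7 CPM in siCTRL and 70.4, 86.0 and 79.7 CPM in siMic60, a rise of 1.52-fold (1.21 to 1.90, adjusted p = 0.00712). The lowest siCTRL value came from replicate 1, and the groups did not overlap. EIF5, which makes eIF2 hydrolyse its GTP at the start codon, rose 1.32-fold (adjusted p = 0.0206), from 289, 353 and 363 CPM to 487, 443 and 394 CPM. Without siCTRL replicate 1 or siMic60 replicate 1 the adjusted p of EIF5 was 0.0538 and 0.0869. EIF2A, a separate protein that can bring initiator tRNA to some start codons, rose 1.33-fold (adjusted p = 0.0203). The call of EIF2A was lost without siCTRL replicate 1 (0.0643), siMic60 replicate 1 (0.0666) or siMic60 replicate 3 (0.0613), and with library totals (0.0506). EIF2A shares 146 exonic bases with SERP1 on the other strand, which fell (log2 fold change -0.37), and the strand setting of the counting is not given in the sources used here.

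Members of the group that did not pass had log2 fold changes of -0.03 (EIF1) to 0.22 (EIF5B, the factor that joins the large subunit, adjusted p = 0.128). EIF1, which keeps the scanning ribosome open, was at 506, 512 and 502 CPM in siCTRL and 508, 551 and 432 CPM in siMic60. EIF1AX, its partner in scanning, averaged 494 ± 57.5 CPM and 536 ± 15.4 CPM (SD, n = 3), and neither pair of groups stood apart. Summed over the group, the level was 3058, 3202 and 3160 CPM in siCTRL and 3763, 3933 and 3483 CPM in siMic60. The number of members called was 3 without siCTRL replicate 1 and 3 without siMic60 replicate 1.

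The exchange factor eIF2B, which reloads eIF2 with GTP, had 1 called subunit. Its subunits summed to 214 ± 6.82 CPM in siCTRL and 210 ± 18.3 CPM in siMic60 (SD, n = 3). Of 5 subunits 1 fell and 4 did not pass, where 17.9% of all genes fell and 17.7% rose. EIF2B4, the δ subunit, was at 34.5, 25.9 and 30.0 CPM in siCTRL and 25.6, 20.3 and 17.9 CPM in siMic60, a fall to 70.2% (adjusted p = 0.0277). The call of EIF2B4 was lost without siCTRL replicate 1 (0.0966), siCTRL replicate 3 (0.0591), siMic60 replicate 2 (0.0858) or siMic60 replicate 3 (0.118). EIF2B1, the α subunit, had the opposite sign with no overlap (31.2 ± 6.08 and 41.1 ± 3.82 CPM, SD, n = 3) but did not pass (adjusted p = 0.058), except without siCTRL replicate 3 and with no minimum count. EIF2B2, EIF2B3 and EIF2B5 overlapped between the groups.

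The enzymes that act on eIF2α were read from a list of its 4 kinases and 5 phosphatase subunits, none of them members. Of the 9, 3 rose and none fell, where 17.7% of all genes rose and 17.9% fell. The counts were the same at an unadjusted p under 0.05 and with DESeq2. EIF2AK3 (PERK, the kinase of the endoplasmic reticulum) had 57, 39 and 57 counts in siCTRL and 120, 164 and 155 in siMic60, a rise of 3.00-fold (adjusted p = 2.25e-05). EIF2AK2 (PKR, which binds double-stranded RNA) rose 1.88-fold (adjusted p = 2.14e-05), and PPP1R15A (GADD34), which targets the phosphatase to eIF2α, rose 1.48-fold (adjusted p = 0.00384). The counts are of mRNA and do not show the phosphorylation of eIF2α.

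The subunits of eIF3, the scaffold between the small ribosomal subunit and the mRNA, moved in both directions. Of 14 genes 3 rose, 2 fell and 9 did not pass, where 17.7% of all genes rose and 17.9% fell. The summed level was 3037 ± 35.3 CPM in siCTRL and 3051 ± 137 CPM in siMic60 (SD, n = 3). EIF3J, a loosely attached subunit, was at 210, 273 and 268 CPM in siCTRL and 363, 365 and 312 CPM in siMic60. It rose 1.39-fold (1.15 to 1.67, adjusted p = 0.00899) with no overlap. EIF3M rose 1.36-fold (adjusted p = 0.0122). EIF3B, a core subunit, rose 1.24-fold (adjusted p = 0.0487) and passed in only 4 of the 13 alternative settings. Without siCTRL replicate 1 its adjusted p was 0.0940, and it passed when siMic60 replicate 3 was left out but with no other library left out.

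EIF3L was at 189, 152 and 153 CPM in siCTRL and 104, 131 and 93.9 CPM in siMic60, a fall to 66.5% (interval of the fold 0.539 to 0.821, adjusted p = 0.00485). Its groups did not overlap. EIF3C was at 408, 313 and 293 CPM in siCTRL and 253, 231 and 244 CPM in siMic60, a fall to 71.8% (adjusted p = 0.0103). Its log2 fold change of -0.48 was -0.31 without siCTRL replicate 1 (adjusted p = 0.0368). EIF3C has a near-identical copy, EIF3CL, which held 30.9%, 39.5% and 46.4% of the reads of the pair in siCTRL and 47.6%, 45.1% and 43.9% in siMic60, so the value of EIF3C alone is uncertain. The pair together was at 588, 515 and 546 CPM in siCTRL and 481, 420 and 435 CPM in siMic60, a log2 ratio of -0.30. The 9 eIF3 genes that did not pass ranged from -0.22 (EIF3F) to 0.18 (EIF3D) on the log2 scale.

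The group of eIF4F and cap-binding factors, only some of which bind the cap themselves, had the most members lower. Its scaffold genes moved apart. Of 11 tested genes 2 rose, 4 fell and 5 did not pass, where 17.7% of all genes rose and 17.9% fell. The 4 that fell also did so in each leave-one-out fit. EIF4E, the cap-binding protein itself, was at 92.2, 90.2 and 88.4 CPM in siCTRL and 91.2, 84.3 and 82.1 CPM in siMic60. The groups overlapped, and the interval of the fold, 0.805 to 1.12, spans 1 (adjusted p = 0.655). EIF4A1 and EIF4A2, the helicases of eIF4F, did not pass either, with log2 fold changes of 0.03 (adjusted p = 0.853) and -0.08 (adjusted p = 0.632). EIF4A1 was at 495, 493 and 558 CPM in siCTRL and 555, 532 and 493 CPM in siMic60, and its sign turned with library totals. EIF4A2 was at 147, 172 and 166 CPM in siCTRL and 152, 142 and 165 CPM in siMic60.

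EIF4G1, the main scaffold that joins eIF4E, eIF4A and eIF3, was at 201, 255 and 280 CPM in siCTRL and 412, 309 and 343 CPM in siMic60. It rose 1.44-fold (1.17 to 1.78, adjusted p = 0.00892). Without siMic60 replicate 1 its log2 fold change of 0.42 did not pass (adjusted p = 0.0503). EIF4G3, a paralogous scaffold, was at 65.9, 80.0 and 74.7 CPM in siCTRL and 54.1, 46.6 and 55.3 CPM in siMic60, a fall to 70.7% (adjusted p = 0.00661). The groups did not overlap for either gene.

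The balance of the paralogs was compared as a log2 ratio within each library, 1 of 5 such ratios examined. EIF4G3 to EIF4G1 was -1.73 ± 0.16 in siCTRL and -2.76 ± 0.15 in siMic60 (SD, n = 3), a difference of -1.03, with every siMic60 library below every siCTRL library. The exact two-sided permutation test gave p = 0.1, the smallest that 3 against 3 allows, and 0.5 after Benjamini-Hochberg adjustment over the 5 ratios. In linear terms EIF4G3 was at 0.302 of EIF4G1 in siCTRL and 0.148 in siMic60.

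EIF4G2 (DAP5), a relative that lacks the eIF4E-binding part and serves cap-independent initiation, was the most abundant of the eIF4F and cap-binding group. Its level was 1474, 1571 and 1735 CPM in siCTRL and 1168, 1141 and 1206 CPM in siMic60, a fall to 73.5% (interval of the fold 0.632 to 0.855, adjusted p = 0.00354). EIF4E2 (4EHP), a cap-binding protein that represses translation because it does not bind eIF4G, was at 233, 206 and 215 CPM in siCTRL and 145, 156 and 134 CPM in siMic60. It fell to 66.6% (0.562 to 0.789, adjusted p = 0.00108). EIF4B, which stimulates the helicase, was at 183, 173 and 191 CPM in siCTRL and 126, 122 and 131 CPM in siMic60, a fall to 69.3% (0.588 to 0.816, adjusted p = 0.00177). In all of these genes the groups stood apart. EIF4B shares 300 exonic bases with an antisense gene that had at most 36 counts in a library and fell as well (log2 fold change -1.20), and EIF4E2 shares 541 with TIGD1 on the other strand, which did not pass the test. EIF4A3, the helicase of the exon junction complex rather than of initiation, rose 1.38-fold (adjusted p = 0.00731).

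Inhibitors of initiation held the member with the smallest adjusted p of all. EIF4EBP2, a binding protein that keeps eIF4E from eIF4G until mTORC1 phosphorylates it, was at 187, 175 and 185 CPM in siCTRL and 108, 101 and 100 CPM in siMic60. It fell to 56.4% of control (interval of the fold 0.479 to 0.665, adjusted p = 4.48e-05). The SDs were 6.46 and 3.96 CPM, so the distance between the groups was many times the spread. Across the 13 alternatives its log2 fold change stayed between -0.88 and -0.80.

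EIF4EBP1, its better known relative, was at 42.4, 35.0 and 36.9 CPM in siCTRL and 49.4, 36.7 and 40.1 CPM in siMic60, with a fold of 1.10 (0.890 to 1.36) that did not pass (adjusted p = 0.49). EIF4EBP3 had a log2 fold change of -0.11 and did not pass. The log2 ratio of EIF4EBP1 to EIF4E was -1.25 ± 0.12 in siCTRL and -1.04 ± 0.16 in siMic60 (SD, n = 3), a difference of 0.21 (exact two-sided permutation p = 0.2, adjusted 0.5). PDCD4, which blocks the eIF4A helicase, was at 28.4, 30.5 and 28.5 CPM in siCTRL and 26.4, 26.8 and 27.1 CPM in siMic60, with no overlap and a log2 fold change of -0.12 that did not pass (adjusted p = 0.508). EIF6, which keeps the large ribosomal subunit from joining too early, rose 1.23-fold (adjusted p = 0.0451) and passed in 5 of 13 alternatives, among them the fits without siCTRL replicate 1 and without siMic60 replicate 3 but no other leave-one-out fit.

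**Figure D3:**
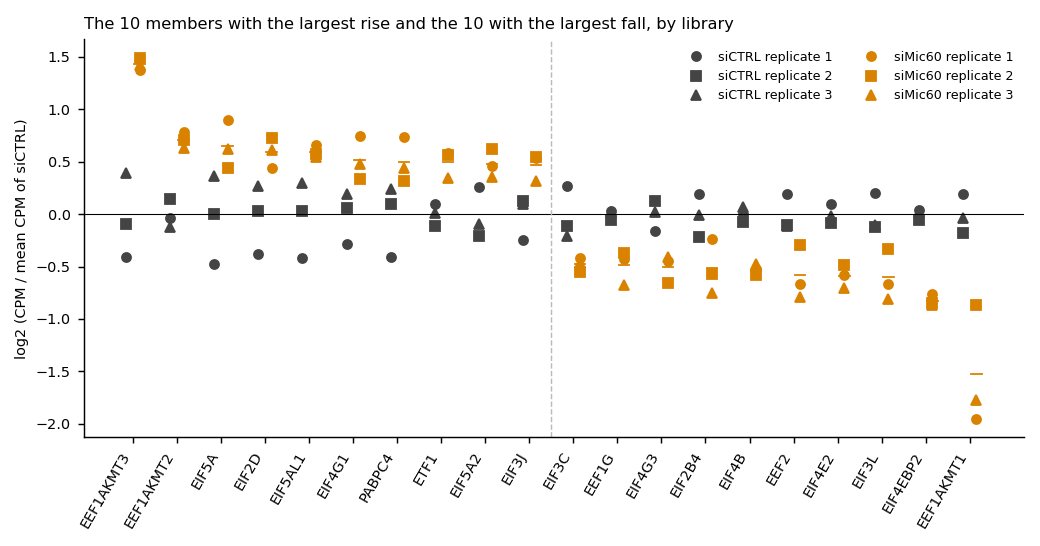
Levels of the 10 members with the largest rise and the 10 with the largest fall are plotted as the log2 of their ratio to the mean CPM of siCTRL, with siCTRL in grey, siMic60 in orange, a point shape for each replicate number and a dash for the siMic60 mean. EIF4EBP2, EIF4E2 and EIF4B show narrow groups that stand apart, while siCTRL replicate 1 lies below the other siCTRL libraries in EIF5A, EIF2D, PABPC4 and EIF4G1.

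Poly(A)-binding and TOP-binding factors were compared next. PABPC1, the main cytoplasmic poly(A)-binding protein that links the mRNA tail to eIF4G, was at 1852, 2644 and 2862 CPM in siCTRL and 3212, 2741 and 3004 CPM in siMic60. The groups overlapped and the fold of 1.22 (0.991 to 1.50) did not pass (adjusted p = 0.128), although it did without siCTRL replicate 3 (0.0497) and with no minimum count (0.0378). PABPC4 was at 104, 147 and 163 CPM in siCTRL and 229, 172 and 187 CPM in siMic60, a rise of 1.42-fold (adjusted p = 0.0222). Without siCTRL replicate 1 or siMic60 replicate 1 the adjusted p of PABPC4 was 0.0604 and 0.105. LARP1 was at 246 ± 19.9 and 262 ± 16.0 CPM (SD, n = 3) and did not pass.

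Elongation factors included EEF1A1, the most abundant mRNA of the set, and genes that moved in each direction. Of 10 genes 3 rose, 2 fell and 5 did not pass, where 17.7% of all genes rose and 17.9% fell. EEF2, the translocase, was at 1185, 969 and 961 CPM in siCTRL and 653, 848 and 599 CPM in siMic60, a fall to 67.4% (interval of the fold 0.551 to 0.825, adjusted p = 0.00449). EEF1G, a structural subunit of the complex that reloads eEF1A with GTP, was at 619, 580 and 615 CPM in siCTRL and 450, 468 and 379 CPM in siMic60, a fall to 71.5% (0.606 to 0.845, adjusted p = 0.00367). Both genes were lower in every siMic60 library than in any siCTRL library. EEF1B2, the exchange subunit, averaged 531 ± 13.0 CPM in siCTRL and 427 ± 87.4 CPM in siMic60 (SD, n = 3), without overlap, and did not pass (adjusted p = 0.0812), except without siMic60 replicate 2 and with library totals.

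EEF1A1, which carries aminoacyl-tRNAs and had the highest level of all members, was at 2600, 3666 and 3999 CPM in siCTRL and 2844, 3276 and 3140 CPM in siMic60. The siCTRL spread covered the siMic60 values, and the fold of 0.902 (0.737 to 1.10) did not pass (adjusted p = 0.428). Without siCTRL replicate 1 its log2 fold change was -0.31 and passed (adjusted p = 0.0380). EEF1A2, the form typical of nerve and muscle, was at 466, 485 and 605 CPM in siCTRL and 524, 486 and 415 CPM in siMic60 (adjusted p = 0.478). The log2 ratio of EEF1A2 to EEF1A1 was -2.71 ± 0.22 and -2.70 ± 0.24 (SD, n = 3; exact two-sided permutation p = 0.9, adjusted 0.9). EEF1D, another exchange subunit, was at 1082, 903 and 811 CPM in siCTRL and 897, 1181 and 794 CPM in siMic60. The EEF1D log2 fold change of 0.04 did not pass (adjusted p = 0.866) and turned sign with library totals.

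The eIF5A genes stood on the other side. EIF5A was at 204, 283 and 364 CPM in siCTRL and 527, 384 and 437 CPM in siMic60, a rise of 1.58-fold (1.22 to 2.05, adjusted p = 0.00843). Its groups did not overlap although both were wide. EIF5AL1, a near-identical copy, was at 12.2, 16.6 and 20.1 CPM in siCTRL and 25.8, 24.4 and 23.8 CPM in siMic60 (1.51-fold, adjusted p = 0.0182), and did not pass without siCTRL replicate 1 (0.0549) or siMic60 replicate 1 (0.0510). It held 4.66% to 5.96% of the reads of the pair in each library, so its value may be read from EIF5A, and the pair together was at 299 ± 83.7 and 473 ± 73.0 CPM (SD, n = 3). EIF5A2, a separate gene, was at 15.8, 11.5 and 12.5 CPM in siCTRL and 18.2, 20.4 and 16.9 CPM in siMic60 (1.40-fold, adjusted p = 0.0469) and passed in 4 of 13 alternatives, of which the fit without siCTRL replicate 1 was the only one with a library left out. The log2 ratio of EIF5A2 to EIF5A differed by -0.20 (exact two-sided permutation p = 0.7, adjusted 0.875), and that of EIF4A2 to EIF4A1 by -0.11 (exact two-sided permutation p = 0.5, adjusted 0.833).

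eIF5A works only once a lysine has been turned into hypusine, and eEF2 carries a diphthamide. From a list of the 9 enzymes of both modifications, of which 8 were tested, 3 rose and 0 fell, against 17.7% and 17.9% of all genes. The counts were the same at an unadjusted p under 0.05 and with DESeq2. DOHH, which completes hypusine, had a log2 fold change of 0.69, and the diphthamide genes DPH3 and DPH7 had 0.43 and 0.42. The count was 0 without siCTRL replicate 2 and 0 without siMic60 replicate 2. DPH1 was not tested, with counts of 113, 0 and 14 in siCTRL and 0, 1 and 1 in siMic60.

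The lysine methyltransferases of eEF1A showed the largest changes, in opposite directions. EEF1AKMT3 (ENSG00000123427, chromosome 12) was at 3.84, 4.75 and 6.66 CPM in siCTRL and 13.2, 14.3 and 13.6 CPM in siMic60, a rise of 2.70-fold (1.92 to 3.79, adjusted p = 0.000223). EEF1AKMT1 (ENSG00000150456, chromosome 13) was at 26.5, 20.5 and 22.6 CPM in siCTRL and 5.98, 12.7 and 6.80 CPM in siMic60, a fall to 37.0% (interval of the fold 0.259 to 0.528, adjusted p = 0.000324). The enzymes act on different lysines of the same protein. EEF1AKMT2 was at 9.11, 10.4 and 8.63 CPM in siCTRL and 16.1, 15.3 and 14.5 CPM in siMic60, a rise of 1.63-fold (1.25 to 2.13, adjusted p = 0.00668).

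For none of these methyltransferases did the groups overlap, and each call stood in all 13 alternatives. EEF1AKMT3 shares 392 exonic bases with METTL1 on the other strand, which had 277 to 306 counts in siCTRL and 283 to 309 in siMic60 and did not pass. EEF2KMT, which methylates eEF2, and EEF2K, the kinase that inhibits it, had log2 fold changes of -0.11 and -0.19 and did not pass.

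Of the release factors 1 rose and the other did not pass, where 17.7% of all genes rose and 17.9% fell. ETF1 (eRF1), which reads the stop codon, was at 57.4, 49.9 and 54.1 CPM in siCTRL and 80.8, 79.4 and 68.1 CPM in siMic60, a rise of 1.41-fold (1.18 to 1.70, adjusted p = 0.00552). GSPT1 (eRF3a), its GTPase partner, averaged 158 ± 11.8 CPM in siCTRL and 132 ± 5.78 CPM in siMic60 (SD, n = 3). The GSPT1 groups did not overlap, with siMic60 lower, but the difference did not pass (adjusted p = 0.0881), except with library totals.

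**Figure D4:**
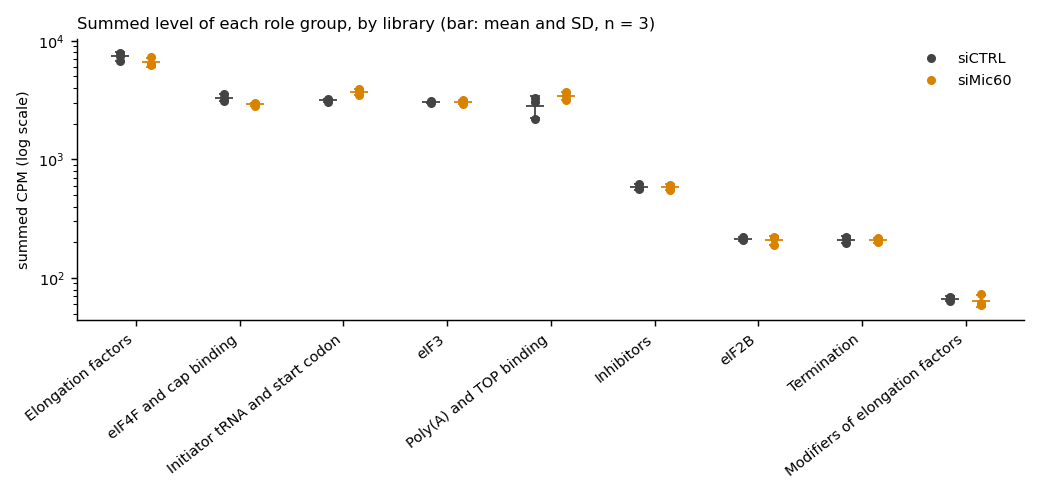
Summed levels of the members of each role are plotted in CPM on a log axis for each library (points) with the mean and SD of the group, siCTRL beside siMic60. The ternary complex group lies higher in all siMic60 libraries (3483 to 3933 CPM) than in siCTRL (3058 to 3202 CPM), and the eIF3 and inhibitor groups lie at nearly the same level in both.

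Summed by role, some groups lay higher and others lower in siMic60, while the sum of all members was nearly equal. The eIF4F and cap-binding group averaged 3319 ± 232 CPM in siCTRL and 2920 ± 85.6 CPM in siMic60, and the elongation factors 7388 ± 617 and 6605 ± 564 CPM (SD, n = 3). The poly(A) and TOP-binding group was at 2829 ± 579 CPM in siCTRL, where replicate 1 gave 2173 CPM, and 3436 ± 267 CPM in siMic60. Sums are carried by their most abundant members, EEF1A1, PABPC1 and EIF4G2, and were not tested.

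TOP mRNAs among the members were examined from a list of 10 textbook TOP genes (EEF1A1, EEF1B2, EEF1D, EEF1G, EEF2, EIF3E, EIF3F, EIF3H, EIF4B and PABPC1). Of these 3 fell (EEF2, EEF1G and EIF4B), 0 rose and 7 did not pass, where 17.9% of all genes fell and 17.7% rose. The median log2 fold change of the list was -0.19. At an unadjusted p under 0.05 the counts were 4 lower and 0 higher, and DESeq2 gave 3 and 0. Of the 57 other tested members 18 rose and 8 fell, with a median of 0.09, and the median of all genes was 0.0022. The difference between the lists was not tested.

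To show what the transcripts of these genes begin with, 26 bases around the annotated start were taken from RefSeq promoters on GRCh38.p14, which held 55 of the 70 members matched by symbol. Each stretch runs from 8 bases before the start to 18 from it, on the strand of the gene, and capitals mark a C at the start with the unbroken pyrimidines after it, at least 4. The first 6 are the members of the TOP list that were among the 55. The others on that list, EEF1D, EIF3E, EIF3H and PABPC1, were not among them, and none of these passed the test. The 6 shown therefore hold all of the listed genes that fell.
EEF1A1 (chr6:73521015-73521040, minus strand): tgaacgttCTTTTTCgcaacgggttt
EEF2 (chr19:3985446-3985471, minus strand): tcagcgttCTCTTCCgccgtcgtcgc
EEF1B2 (chr2:206159887-206159912, plus strand): cttcgggtCCTTTTTCCTCTCTTCag
EIF4B (chr12:53006448-53006473, plus strand): atccgggtCTTTTgcgttctctttcc
EIF3F (chr11:7987329-7987354, plus strand): tccgcctcCTTCTTTCTCgacaagat
EEF1G (chr11:62573874-62573899, minus strand): ggcggcttactttgcggcagcgccga
Of the 6, EEF2, EIF4B and EEF1G fell, and EEF1G has no such run at its annotated start. The next 4 are members that rose and carry the same kind of start without being on the list.
EIF2S3 (chrX:24054948-24054973, plus strand): tttccttcCTCTTTTggcaacatggc
EIF2A (chr3:150546779-150546804, plus strand): agcggtttCTCTTTCCgggacaacat
EIF2D (chr1:206612448-206612473, minus strand): agccgggcCCTTTTCgcggccgggcc
EIF3M (chr11:32583823-32583848, plus strand): ccagttccCTTTTCCggtcggcgtgg
A pyrimidine start was thus found among members of either direction.

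Counted over all members in the promoter table, 13 of 55 (23.6%) had such a start, against 7.41% of the 10617 tested genes with a promoter. The 55 include EIF4E1B, EIF2S3B and EEF1E1-BLOC1S5, which had no counts and were not tested, and EIF2S3B holds such a start. Among the tested members it was 4 of 15 that rose, 2 of 9 that fell and 6 of 28 that did not pass. The E-box CACGTG, which is its own reverse complement, lay within the 300 bases from 250 before the start for 12 of 55 members (21.8%) and 12.5% of tested genes. The motif TGATGNAAN of C/EBP-ATF response elements, searched on both strands, lay there for 1 of 55 members (1.82%) and 2.70% of tested genes. These matches are descriptions of letters, and the start used in PC3 cells was not measured.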

How the data were processed

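QuantSeq 3′ mRNA libraries of PC3 cells, 3 per group, were sequenced by the authors. The authors deposited counts per Ensembl gene, 1 column per library, without normalization. RSEM 1.2.3, DESeq2 and hg19 (GRCh37) stand in the submitters' processing notes without their roles, so the whole numbers may be rounded estimates. For the aligner, annotation and strand setting, the entry is "not given in the sources used here". Symbols were found for 40129 of 57736 rows, 39501 from a table of current names and 628 from GENCODE 29.

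Tests on the counts used edgeR 4.0.16 under R 4.3.3 (TMM, at least 10 counts in at least 3 libraries, quasi-likelihood test, Benjamini-Hochberg adjustment over all 14653 genes, threshold 0.05). Intervals are 95% intervals. Library totals of 6644495 to 8779877 counts mean that 3 counts equal 0.342 to 0.452 CPM. Ratios used a pseudocount of 0.5 added to the counts. Members given with every library's value are the called ones with the 10 largest increases and 10 largest decreases (mean of at least 5 CPM), the 5 with the highest level and those of the ratios. EIF2S2, EIF2S3, EIF5 and other members named beyond this rule stand for their role or list. Members and lists were chosen with earlier results of these data known, and the promoter motifs, copies and overlapping genes were examined after the values were seen.

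Each choice was changed alone: the tool (DESeq2 1.42.0, or limma-trend 3.58.1 with a prior of 2), the scaling (size factors of DESeq2, or library totals), the count minimum (none, or 50), a block for the replicate number, and leaving out every library once. The edgeR step was tested on simulated data. Where a 1.5-fold difference had been built in, it detected only 14 out of 64 genes. Detection reached 55 out of 68 when the difference was 2-fold, and 65 out of 65 when it was 5-fold. Among 14188 genes simulated without any difference, 10 were called. The simulation differed from the data, since 14188 of its 14385 genes had no difference, while 35.5% of genes were called in the data. The Benjamini-Hochberg adjustment is stricter where fewer genes differ, so these detection rates do not carry over to the data. Small differences can still be missed, and a member that did not pass is not shown to be unchanged. No pair of libraries agreed within sampling noise.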

Additional observations from a re-analysis of the deposited data

How the results depend on the processing

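The number of members that fell was 10 to 11 when each library was left out in turn and 11 to 13 otherwise, and the number that rose was 10 to 17 when each library was left out and 14 to 18 otherwise. The low value of 10 came from the fit without siMic60 replicate 1, and the cause was not tested. A fit with the replicate number as a block gave 15 members higher and 11 lower and lost EIF3B, EIF5A2 and EIF6. The numbers were not taken to pair the libraries, since deviations of same-numbered libraries correlated at -0.10, -0.03 and 0.03. With library totals EIF2A, EIF3B, EIF5A2 and EIF6 were lost, and EEF1B2 and GSPT1 passed. Among the members of the rule given with every library, the sign turned for EIF4A1 and EEF1D, which did not pass in any setting. It also turned for EIF1 (0.06 without siMic60 replicate 3), EIF3A, EIF3CL, EIF3G and EEF1E1, which did not pass in any setting either. EIF4A1 had a log2 fold change of -0.026 with library totals, and -0.0012 (without siMic60 replicate 1) to 0.092 when libraries were left out. EEF1D was at -0.018 with library totals and at -0.13 (without siMic60 replicate 2) to 0.17 when libraries were left out, with -0.05 without siCTRL replicate 3. Groups of 3 libraries limit what small differences can be shown, and no permutation of 3 against 3 can give a p under 0.1.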

Other observations

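Regulators and other genes around the members also differed between the groups. Of the 17 listed genes of the mTORC1 and MNK axis, which acts on eIF4E and its binding proteins, 16 were tested. Not every listed gene is itself such a regulator, for example the ribosomal protein RPS6. Of the 16, 1 rose and 8 fell (17.7% and 17.9% of all genes did), with a median log2 fold change of -0.34 against 0.0022 for all genes. The genes that fell included the kinase MTOR itself (-0.56), its partners RPTOR (-0.48) and MLST8 (-0.54), both eIF4E kinases MKNK1 (-0.38) and MKNK2 (-0.57), the ribosomal protein RPS6 (-0.53), the kinase RPS6KA1 (-0.67) and TBC1D7 (-0.70), a subunit of the TSC complex that restrains mTORC1. The gene that rose was SESN2 (log2 fold change 1.04), a leucine sensor that restrains mTORC1 and is induced by stress. The number lower was 4 without siMic60 replicate 1 and 4 without siMic60 replicate 3. DEPTOR was not tested.

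Of 19 accessory initiation and ribosome rescue factors 18 were tested, of which 9 rose and 1 fell, against 17.7% and 17.9% of all genes. Among those that rose were DENR (0.74) and MCTS1 (0.31), which form a complex that recycles ribosomes and reinitiates, the eIF5 mimics BZW1 (0.59) and BZW2 (0.87), the selenocysteine elongation factor EEFSEC (0.86), the rescue factor PELO (0.59), the helicase DHX29 (0.47), and LARP1B (0.43) and LARP4 (0.40), as log2 fold changes. The helicase DDX3X fell (-0.90, adjusted p = 4.75e-05, edgeR's quasi-likelihood test). The number higher was 5 without siMic60 replicate 2, 5 without siMic60 replicate 3 and 5 with library totals. Of 10 mitochondrial translation factors 1 rose (GFM2, 0.65) and 1 fell (MTIF2, log2 fold change -0.34), where 17.7% of all genes rose and 17.9% fell. Neither GFM2 nor MTIF2 passed without siMic60 replicate 1.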
